A study of Homo sapiens with 48 samples.

Results

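The genes described here encode the subunits, activators, inhibitor and assembly chaperones of the proteasome in H1975, an EGFR-mutant line derived from a non-small cell lung cancer. They were picked out by symbol, as PSMA, PSMB, PSMC, PSMD, PSME, PSMF or PSMG followed by digits, leaving out the immunoproteasome subunits PSMB8, PSMB9 and PSMB10. The rule found 45 of 27978 symbols. The filter on low counts kept 43 of them. PSMA8, a testis form of an alpha subunit, had 0 counts in each of the 48 libraries, and PSMB11, the thymus beta subunit, had at most 3 counts.

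Cells were sampled after 24 h with gefitinib, which blocks the kinase of EGFR, with a preparation named CKI or YFSJ, with gefitinib and a preparation together, and untreated at 24 h and at 0 h. Gefitinib was used at 50 and 75 µM. CKI, compound kushen injection, was used at 1 and 2 mg/mL, and YFSJ at 2.5 and 5 mg/mL; the labels do not spell out the letters YFSJ. Each of the 4 preparation doses was also combined with each gefitinib dose, which makes 16 groups of 3 libraries. The labels do not say whether the 3 libraries of a group came from separate cultures, so p-values measure the spread between these libraries, which may be technical. All groups share 1 line, RPMI-1640 medium and serum, and no vehicle control is named. The catalogue number in the labels is not that of H1975 but that of the breast cancer line MCF-7. Lung-line markers were present, with median levels of 44.7 CPM (counts scaled to a common library size) for NKX2-1 and 96.5 CPM for EGFR, while the breast marker ESR1 had a median of 0.125 CPM and PGR of 0 CPM.

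The proteasome degrades proteins tagged with ubiquitin. Its barrel, the 20S core, stacks rings of alpha subunits, which form the gate, around rings of beta subunits, of which PSMB5, PSMB6 and PSMB7 carry the catalytic sites. The 19S cap, made of ATPases (PSMC genes) and non-ATPase subunits (most PSMD genes), binds ubiquitin chains and unfolds substrates. Other genes encode alternative activators (PSME), a core inhibitor (PSMF1) and chaperones that guide assembly of the core (PSMG) or of the cap (PSMD5, PSMD9 and PSMD10). Transcription of the subunits is known to be coordinated in human cells, and the factor NFE2L1 is known to raise them together when proteasome activity is blocked.

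Totals ran from 16428398 to 26264162 counts per library, and the members took between 0.579% and 0.929% of them. Levels are CPM scaled by TMM factors, which correct library totals for differences in composition. Levels of this kind are shares of a library's RNA, so fewer cells carrying a transcript and less of it per cell cannot be told apart. A gene is called where edgeR's quasi-likelihood test gave a Benjamini-Hochberg adjusted p under 0.05 over all 15789 genes tested, and adjusted p below always means this test. Log2 changes carry the fit's standard error (SE), with 3 libraries in each group. ALB, a liver transcript, had 2581 counts or more in 10 libraries and at most 8 in the other 38. The 10 were all of YFSJ 2.5 mg/mL, all of CKI 2 mg/mL with gefitinib 75 µM, libraries 1 and 3 of CKI 2 mg/mL with gefitinib 50 µM, and libraries 2 and 3 of CKI 1 mg/mL with gefitinib 75 µM.

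In untreated cells at 24 h the members spanned a wide range of levels per kilobase of their longest principal transcript. PSMA7 stood highest at 575 ± 37.0 CPM per kilobase (SD, n = 3), followed by PSMB4 at 566 ± 40.8, and these neighbours did not differ beyond their spread. PSME4, which encodes the activator PA200, stood lowest among the genes tested at 11.5 ± 1.12 CPM per kilobase. The chaperone PSMG1 stood at 32.7 ± 2.14 CPM per kilobase, against 347 ± 26.6 for the catalytic subunit PSMB6 and 191 ± 8.25 for PSMB5.

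Across the groups the whole set moved between levels that gefitinib and CKI each set apart from untreated cells. The members summed to 6256 ± 53.4 CPM with gefitinib 75 µM, 6090 ± 156 with gefitinib 50 µM, 7530 ± 165 with CKI 2 mg/mL, 9045 ± 278 with CKI 1 mg/mL, 9435 ± 250 with YFSJ 2.5 mg/mL and 9863 ± 298 with YFSJ 5 mg/mL, against 9687 ± 333 CPM in untreated cells at 24 h (SD, n = 3 each). With CKI 2 mg/mL added, the sum was 6894 ± 134 CPM beside gefitinib 50 µM and 7026 ± 193 beside 75 µM. In every library these combinations lay above all libraries of their gefitinib dose alone and below all of CKI 2 mg/mL alone.

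**Figure D1:**
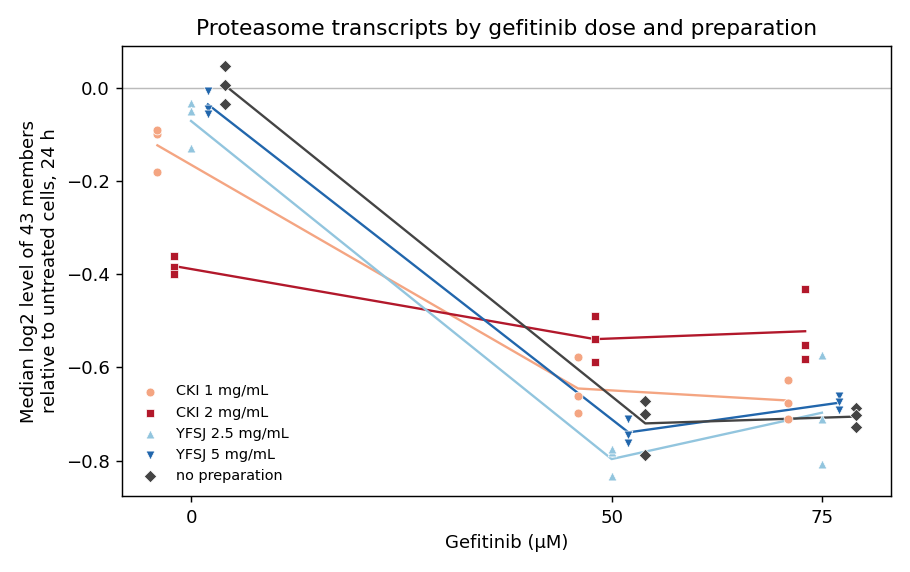
Median log2 level of the 43 tested members in each library, relative to the mean of untreated cells at 24 h, by gefitinib dose (µM, points spread sideways for clarity). Symbols are single libraries and lines join the means of 3 libraries for each preparation dose. Without gefitinib the CKI 2 mg/mL libraries lie between -0.40 and -0.36, and with it between -0.59 and -0.43, a smaller step than in cells without a preparation.

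Gefitinib lowered nearly every proteasome gene. With 75 µM, 41 of the 43 members tested fell and 0 rose, against 27.1% of all genes tested that fell and 27.6% that rose. The median member changed by -0.72 on the log2 scale. With 50 µM, 40 fell and 0 rose, with the same median of -0.72, against 26.8% of all genes that fell and 27.6% that rose. The 40 that fell at 50 µM also fell at 75 µM, but both comparisons use the same untreated libraries. In 41 members all 3 libraries of the 75 µM group lay below all 3 untreated ones, as they did in 30.4% of all genes tested. Between 75 and 50 µM, 0 members were called, and 0 had an unadjusted p under 0.05 in edgeR, where 0.0317% of all genes rose and 0% fell. DESeq2 also called 0. For gefitinib alone, CKI alone and CKI 2 against 1 mg/mL, 0 members had a rise with an unadjusted p under 0.05 in edgeR, and DESeq2 called 0 that rose.

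By role, gefitinib 75 µM lowered all 7 alpha subunits and all 7 beta subunits (median log2 changes of -0.76 in each ring). It also lowered all 6 cap ATPases (-0.75), all 11 cap non-ATPases (-0.74) and all 7 chaperones (-0.66). The largest fall was that of PSMD12, a scaffold subunit of the lid of the cap. PSMD12 stood at 62.5, 61.5 and 58.1 CPM with gefitinib 75 µM, against 126, 129 and 121 CPM in untreated cells. It changed by -1.05 ± 0.09 (SE, adjusted p = 3.09e-14), a fall by 51.6%, and the groups did not overlap.

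PSMB3, a structural beta subunit, stood at 134, 133 and 127 CPM with gefitinib 75 µM, against 263, 256 and 290 CPM in untreated cells. It changed by -1.04 ± 0.11 (adjusted p = 8.25e-11). PSMG1, a chaperone of alpha-ring assembly, stood at 34.4, 36.8 and 35.7 CPM with gefitinib 75 µM, against 69.7, 66.1 and 75.3 CPM in untreated cells, a change of -0.98 ± 0.08 (adjusted p = 9.81e-14). The alpha subunit PSMA3 had 110, 115 and 101 CPM with gefitinib 75 µM, against 206, 224 and 196 CPM in untreated cells (-0.95 ± 0.09, adjusted p = 3.74e-12). In all 3 genes every treated library lay below every untreated one. At 50 µM the 4 largest falls were those of PSMB3 (-1.04 ± 0.11), PSMD12 (-1.04 ± 0.09), PSMA3 (-0.97 ± 0.09) and PSMB2 (-0.95 ± 0.07), a structural beta subunit.

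The catalytic subunits fell by unequal amounts. PSMB5, which carries the chymotrypsin-like site that the drug bortezomib binds, stood at 144, 149 and 146 CPM with gefitinib 75 µM, against 250, 236 and 257 CPM in untreated cells. Its change was -0.76 ± 0.08 (adjusted p = 1.32e-11). PSMB6, the caspase-like subunit, stood at 215, 211 and 210 CPM with gefitinib 75 µM, against 285, 280 and 321 CPM in untreated cells (-0.48 ± 0.08, adjusted p = 3.09e-06). PSMB7, the trypsin-like subunit, changed least, at 134, 136 and 147 CPM with gefitinib 75 µM, against 173, 161 and 187 CPM in untreated cells (-0.32 ± 0.12, adjusted p = 0.0207). The call for PSMB7 was lost without library 3 of untreated cells (adjusted p = 0.0920), without library 1 or 2 of gefitinib 75 µM (0.0668 and 0.0584), and with plain library-size scaling (0.0533).

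Only 2 of the 43 members were not called with 75 µM. PSME1, a subunit of the PA28 alpha-beta activator, had 153, 148 and 142 CPM with gefitinib 75 µM, against 148, 150 and 145 CPM in untreated cells, and the groups overlapped (-0.00 ± 0.12, adjusted p = 0.990). Its partner PSME2 fell, with 91.6, 92.4 and 89.5 CPM with gefitinib 75 µM, against 130, 124 and 127 CPM in untreated cells (-0.48 ± 0.07). PSMF1, the core inhibitor, had 287, 262 and 298 CPM with gefitinib 75 µM, against 262, 281 and 319 CPM in untreated cells (-0.03 ± 0.09, adjusted p = 0.843). PSME3, which encodes PA28 gamma, and PSME4 changed by -0.56 ± 0.08 and -0.42 ± 0.14, and the ubiquitin receptor PSMD4 by -0.38 ± 0.08. Without library 1 of untreated cells PSME4 lost its call (adjusted p = 0.0645). At 50 µM the cap chaperone PSMD9 was not called either (-0.16 ± 0.07, adjusted p = 0.0702), a gene singled out here after its value was seen.

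**Figure D2:**
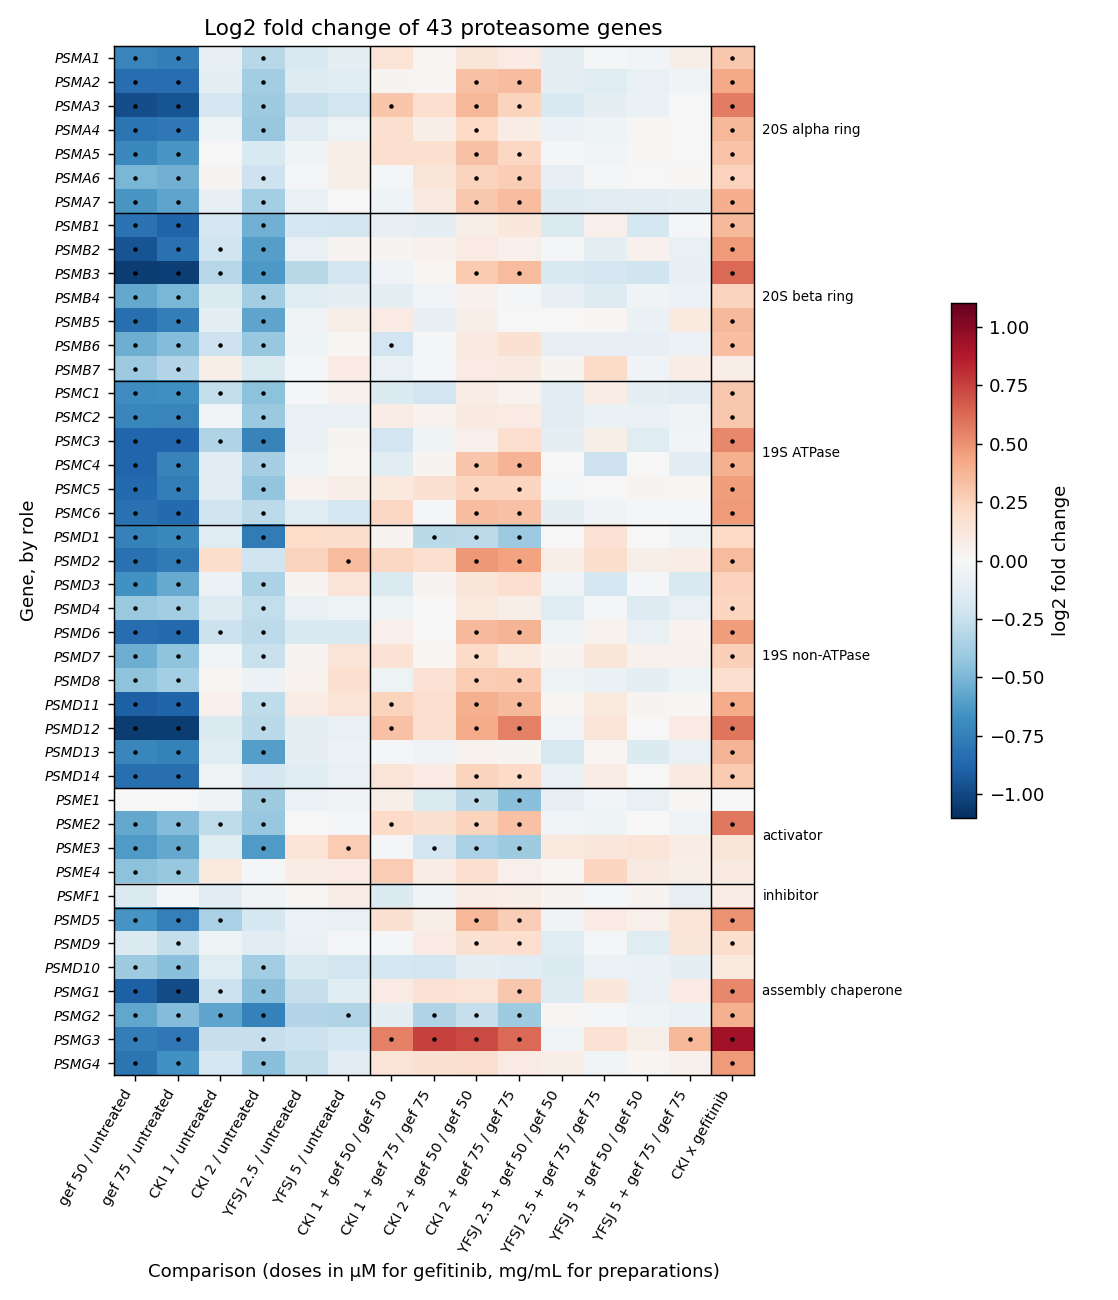
Log2 fold change of each tested member (rows, grouped by role) in 15 comparisons (columns, with the group on top of the fold change named first), and dots where the adjusted p is under 0.05. Gefitinib columns are blue in nearly every row, CKI 2 mg/mL alone is blue in 34 called rows, and the columns of YFSJ added to gefitinib hold 1 dot, that of PSMG3.

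Upstream sequences are shown for 4 of these genes because PSMD12, PSMB3 and PSMG1 had the largest falls with gefitinib 75 µM and PSME1 was not called. They come from RefSeq (GRCh38.p14) and cover the 250 bases before the annotated start, written 5′ to 3′ on the gene's strand. The windows are chr17:67366578-67366827 (minus strand) for PSMD12, chr17:38752491-38752740 (plus strand) for PSMB3, chr21:39183452-39183701 (minus strand) for PSMG1 and chr14:24135944-24136193 (plus strand) for PSME1. Capitals mark the letters TGACNNNGC, the core of the antioxidant response element that NFE2L1 and NFE2L2 are known to use, and CCAAT, the box bound by NF-Y, each searched on both strands.
PSMD12: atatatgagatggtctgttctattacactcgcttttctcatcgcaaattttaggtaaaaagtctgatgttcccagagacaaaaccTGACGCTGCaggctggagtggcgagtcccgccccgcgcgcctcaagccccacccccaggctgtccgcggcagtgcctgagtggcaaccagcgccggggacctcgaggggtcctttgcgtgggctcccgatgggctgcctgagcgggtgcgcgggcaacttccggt
PSMB3: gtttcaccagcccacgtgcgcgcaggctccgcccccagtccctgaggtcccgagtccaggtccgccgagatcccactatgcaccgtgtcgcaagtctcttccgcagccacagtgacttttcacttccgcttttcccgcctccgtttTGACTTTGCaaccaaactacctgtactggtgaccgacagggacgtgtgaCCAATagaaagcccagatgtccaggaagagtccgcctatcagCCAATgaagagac
PSMG1: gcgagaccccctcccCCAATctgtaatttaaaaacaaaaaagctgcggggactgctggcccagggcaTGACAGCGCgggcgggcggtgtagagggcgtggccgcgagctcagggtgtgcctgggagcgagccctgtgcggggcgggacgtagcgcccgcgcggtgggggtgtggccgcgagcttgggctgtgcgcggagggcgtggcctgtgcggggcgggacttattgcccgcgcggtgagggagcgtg
PSME1: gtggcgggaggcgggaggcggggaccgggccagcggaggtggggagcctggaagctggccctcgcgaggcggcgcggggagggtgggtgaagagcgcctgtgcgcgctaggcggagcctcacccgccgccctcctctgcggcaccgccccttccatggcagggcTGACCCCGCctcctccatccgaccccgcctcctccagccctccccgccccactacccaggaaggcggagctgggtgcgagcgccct

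All 4 windows hold TGACNNNGC, PSMB3 and PSMG1 also hold CCAAT, and PSME1, which was not called with gefitinib, shares the first motif with the 3 that fell. Promoters of 39 of the 45 members matched RefSeq entries of 300 bases, which run on past the start. Of these 39, 12 (30.8%) hold TGACNNNGC, against 13.3% of all 35116 promoters of the same length. CCAAT is in 18 (46.2%), against 34.6% of all. TGACNNNGC is in 0 of the 7 alpha-subunit promoters matched, which are those of PSMA1 to PSMA6, which all fell with gefitinib 75 µM, and of PSMA8, which was not tested. It is in 4 of 6 chaperone promoters and in 3 of 4 activator promoters. A match describes letters and not binding.

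CKI at 2 mg/mL alone also lowered the set, by less in the median. Of the 43 members tested, 34 fell and 0 rose, against 27.1% of all genes tested that fell and 24.1% that rose. The median change was -0.38, against -0.01 over all genes. At 1 mg/mL, 10 fell and 0 rose (median -0.13), against 14.7% of all genes that fell and 13.2% that rose. Between 2 and 1 mg/mL, 23 members were lower at the higher dose and 0 higher, against 17.6% of all genes that were lower and 15.1% that were higher. With plain library-size scaling in place of TMM factors the median of all genes moved by 0.198 in the 2 mg/mL comparison. The members' median was then -0.18, against 0.18 over all genes, and 18 were called lower (41.9%, against 16% of all genes). In that scaling 69% of all called genes were higher, against 47.1% with TMM factors.

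The largest falls with CKI 2 mg/mL were those of PSMD1, PSMG2, PSMC3 and PSMB3, of which PSMB3 was also among the 4 largest with gefitinib 75 µM. PSMD1, the large base subunit of the cap, stood at 101, 90.9 and 103 CPM with CKI 2 mg/mL, against 182, 155 and 165 CPM in untreated cells. It changed by -0.77 ± 0.11 (adjusted p = 7.09e-08). PSMG2, the chaperone that pairs with PSMG1, stood at 32.0, 27.0 and 28.9 CPM with CKI 2 mg/mL, against 48.7, 53.8 and 44.4 CPM in untreated cells (-0.74 ± 0.10, adjusted p = 2.78e-08). The ATPase PSMC3 had 188, 204 and 168 CPM with CKI 2 mg/mL, against 297, 298 and 335 CPM in untreated cells (-0.73 ± 0.11, adjusted p = 1.93e-07). PSMB3 had 169, 182 and 172 CPM with CKI 2 mg/mL (-0.63 ± 0.11, adjusted p = 6.15e-06), against the untreated levels given above. In all 4 genes the groups did not overlap.

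By role, CKI 2 mg/mL lowered 6 of 7 alpha subunits (median -0.37), 6 of 7 beta subunits (-0.53), all 6 ATPases (-0.42), 8 of 11 cap non-ATPases (-0.28), 5 of 7 chaperones (-0.38) and 3 of 4 activators (-0.41). PSMB5 had 171, 168 and 157 CPM with CKI 2 mg/mL, all below its untreated libraries (-0.58 ± 0.08, adjusted p = 1.62e-08). PSMB6 changed by -0.42 ± 0.08 (adjusted p = 3.25e-05) and PSMB7 by -0.16 ± 0.12 (adjusted p = 0.265). PSME1, which was not called with gefitinib, fell to 109, 114 and 115 CPM with CKI 2 mg/mL, against 148, 150 and 145 CPM in untreated cells (-0.40 ± 0.12, adjusted p = 0.00386). Its call was lost with library-size scaling (-0.19, adjusted p = 0.204). PSME3 changed by -0.62 ± 0.08 (adjusted p = 1.46e-08), while PSME4 (-0.01 ± 0.14) and PSMF1 (-0.04 ± 0.09) were not called.

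At 1 mg/mL the largest falls were those of PSMG2 (-0.58 ± 0.10, adjusted p = 1.05e-05), the cap chaperone PSMD5 (-0.36 ± 0.09), PSMC3 (-0.33 ± 0.11) and PSMB3 (-0.31 ± 0.11). PSMG2 had 34.6, 32.7 and 31.2 CPM with CKI 1 mg/mL, close to its level at 2 mg/mL, and it was not called between the doses (-0.16 ± 0.10). PSMD1 and PSME3, in contrast, were lower at 2 than at 1 mg/mL, by -0.64 ± 0.11 (adjusted p = 1.05e-05) and -0.49 ± 0.08 (adjusted p = 7.23e-06). The count at 1 mg/mL rested on single libraries. It was 5 without library 3 of untreated cells, 6 without library 1 and 4 without library 3 of CKI 1 mg/mL. As shares of the 43 members, these counts are not above the 14.7% of all genes that fell with every library kept. Some other settings lowered the count too, as given at the end. The count between the doses was 14 without library 1 of CKI 1 mg/mL, 15 without its library 2 and 15 without library 3 of CKI 2 mg/mL. Without library 3 of untreated cells or library 1 or 3 of CKI 1 mg/mL, PSMC3 and PSMB3 lost their calls at 1 mg/mL, with an adjusted p between 0.0538 and 0.132.

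When CKI 2 mg/mL was added to gefitinib, more members rose than fell. Against gefitinib 75 µM alone, 20 of 43 members rose and 4 fell, with a median change of 0.18, against 28.8% of all genes tested that rose and 29.4% that fell. Against gefitinib 50 µM alone, 21 rose and 4 fell, also with a median of 0.18, against 26.6% that rose and 27.1% that fell. The same 4 genes fell beside both gefitinib doses, and 19 rose beside both. Of the 34 that CKI 2 mg/mL lowered alone, 14 rose beside 75 µM and 15 beside 50 µM. These overlaps were not counted over all genes, so they cannot be called particular to the members. Without library 1 of CKI 2 mg/mL with gefitinib 75 µM the count that rose was 12, and PSMB3 was no longer called (adjusted p = 0.0842). As a share of the 43 members, 12 is near the 28.8% of all genes that rose with every library kept. Beside 50 µM the count that rose was 14 without library 2 of gefitinib 50 µM. The count that fell there was 2 without library 1 of either group compared and 1 without library 3 of gefitinib 50 µM. Shares of all genes in these fits are not given here.

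In these comparisons the libraries with liver transcripts were all among the combinations. All 3 libraries of CKI 2 mg/mL with gefitinib 75 µM and libraries 1 and 3 of CKI 2 mg/mL with gefitinib 50 µM had over 1000 ALB counts, and no gefitinib-only library did. With a batch term for such libraries, 7 members rose beside 75 µM, with a median change of 0.16. That is 16.3% of the members, against 21.7% of all genes that rose in that fit, so that the share of members that rose was no longer above that of all genes. From the 1 remaining library beside 50 µM, assumed to vary like the others, 8 members rose and 1 fell, with a median of 0.17. The 8 are 18.6% of the members, near the 17.1% of all genes that rose there.

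By role, the rises lay mostly outside the beta ring and the activators. Beside gefitinib 75 µM, 5 of 7 alpha subunits, 3 of 6 ATPases, 6 of 11 cap non-ATPases and 4 of 7 chaperones rose, but of the 7 beta subunits only PSMB3 did and of the 4 activators only PSME2 did. PSMB5, the catalytic subunit, had 153, 146 and 143 CPM with both agents, against 144, 149 and 146 CPM with gefitinib 75 µM, and the groups overlapped (0.01 ± 0.08, adjusted p = 0.944). PSMD12 had 95.5, 87.7 and 84.3 CPM with both agents, against 62.5, 61.5 and 58.1 CPM with gefitinib 75 µM (0.56 ± 0.09, adjusted p = 3.86e-07). PSMD2, a scaffold of the base of the cap, was called beside both doses, and beside 50 µM it rose by 0.48 ± 0.11 (adjusted p = 0.000352). The call beside 50 µM was lost in the remaining library without liver transcripts (0.40, adjusted p = 0.0651).

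The 4 members that fell beside gefitinib 75 µM were PSME1, PSMD1, PSMG2 and PSME3. PSME1 and PSMG2 overlap exons of EMC9 and CEP76 on the opposite strand, and the unstranded libraries cannot separate those reads. PSMD1 and PSME3 have no such overlap. PSME1 had 115, 104 and 105 CPM with both agents, against 153, 148 and 142 CPM with gefitinib 75 µM (-0.46 ± 0.12, adjusted p = 0.000808). PSMD1 had 80.9, 75.6 and 75.4 CPM with both agents, against 104, 110 and 92.9 CPM with gefitinib 75 µM (-0.40 ± 0.11, adjusted p = 0.00145). PSMG2 changed by -0.39 ± 0.10 and PSME3 by -0.39 ± 0.08 (adjusted p = 6.55e-05). All 4 had also fallen with CKI 2 mg/mL alone. Beside 50 µM their falls were smaller, and without the libraries with liver transcripts PSMD1 (adjusted p = 0.0804), PSME1 (0.447) and PSMG2 (0.274) lost their calls there.

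**Figure D3:**
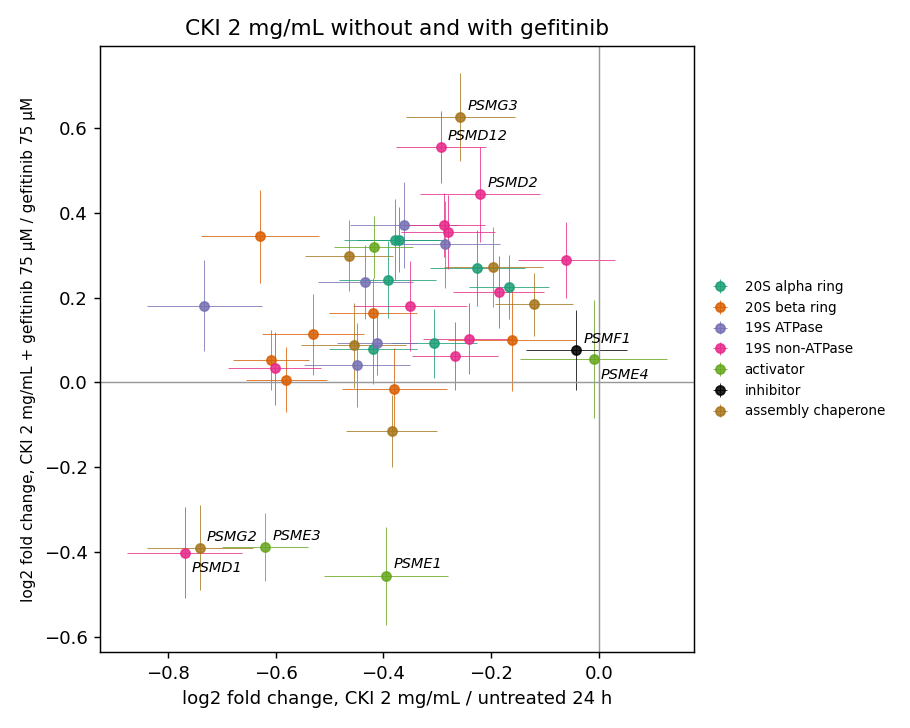
Log2 fold change of each tested member with CKI 2 mg/mL over untreated cells (x axis) and with CKI 2 mg/mL plus gefitinib 75 µM over gefitinib 75 µM (y axis). Points are genes coloured by role and bars are SE. Every point lies left of 0 on the x axis, 37 lie above 0 on the y axis, and PSME1, PSMD1, PSMG2 and PSME3 form a separate set at the lower left.

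The interaction, that is, the joint change less the sum of the changes each agent gave alone, was positive for 33 called members and negative for 0, against 20% of all genes tested called positive and 19.5% negative. It was averaged over the 4 dose pairs of CKI and gefitinib. Its median over the members was 0.36, against -0.00 over all genes. All 7 alpha subunits, all 6 ATPases, 5 of 7 beta subunits, 8 of 11 cap non-ATPases, 6 of 7 chaperones and 1 of 4 activators were called. By dose pair the median interaction was 0.57 for CKI 2 mg/mL with gefitinib 50 µM and 0.54 with 75 µM, but 0.16 and 0.13 for CKI 1 mg/mL. For CKI 2 mg/mL with gefitinib 75 µM the median member stood at -0.52 relative to untreated cells, where the sum of the single changes was -1.09. The interaction and the comparisons above share libraries and are no independent support for each other.

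The largest interactions were those of PSMG3 (0.92 ± 0.11, adjusted p = 1.45e-09), PSMB3 (0.62 ± 0.12, adjusted p = 2.47e-05), PSMD12 (0.59 ± 0.09, adjusted p = 5.35e-07) and PSME2 (0.58 ± 0.08, adjusted p = 3.07e-08). PSMB5 had 0.36 ± 0.08 and PSMB6 0.33 ± 0.09, while PSMB7 (0.07 ± 0.13), PSME1 (0.01 ± 0.12), PSME3 (0.13 ± 0.08), PSME4 (0.10 ± 0.15) and PSMF1 (0.08 ± 0.10) were not called.

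PSMG3, a chaperone of core assembly that pairs with PSMG4, had the largest rise in all 4 comparisons of CKI added to gefitinib, and its combination levels were near those of untreated cells. It had 89.5, 85.5 and 87.2 CPM with CKI 2 mg/mL and gefitinib 75 µM, and 94.8, 91.2 and 99.8 CPM with CKI 1 mg/mL and gefitinib 75 µM, against 56.7, 54.6 and 58.6 CPM with gefitinib 75 µM alone. Every combination library lay above every gefitinib library, with changes of 0.63 ± 0.10 (adjusted p = 1.40e-06) and 0.75 ± 0.10 (adjusted p = 1.34e-07). Beside 50 µM the changes were 0.73 ± 0.10 with CKI 2 mg/mL and 0.56 ± 0.10 with CKI 1 mg/mL. Untreated cells had 89.3, 106 and 99.0 CPM. With CKI alone, PSMG3 changed by -0.26 ± 0.10 at 2 mg/mL (adjusted p = 0.0313), a call lost with library-size scaling (adjusted p = 0.676) and without library 2 (0.144) or 3 (0.0717) of untreated cells or library 1 (0.0771) or 3 (0.104) of CKI 2 mg/mL. PSMG4, its partner, was not called beside either gefitinib dose with CKI 2 mg/mL (0.09 ± 0.10 and 0.18 ± 0.10 for 75 and 50 µM).

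The exons of PSMG3 overlap PSMG3-AS1, an antisense RNA on the opposite strand, and the libraries are unstranded, so reads of the overlap cannot be told apart. PSMG3-AS1 had lower levels and moved the other way. It averaged 20.7 ± 1.45 CPM with gefitinib 75 µM, against 9.92 ± 0.33 CPM in untreated cells (SD, n = 3 each; 1.06 ± 0.13 on the log2 scale with SE, adjusted p = 1.20e-09). With CKI 2 mg/mL added it averaged 10.5 ± 0.38 CPM (-0.98 ± 0.12 relative to gefitinib 75 µM, adjusted p = 5.68e-09), and its interaction was -0.92 ± 0.13 (adjusted p = 3.21e-07). With CKI 1 mg/mL beside gefitinib 75 µM it was not called (-0.18 ± 0.12), although PSMG3 rose there.

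**Figure D4:**
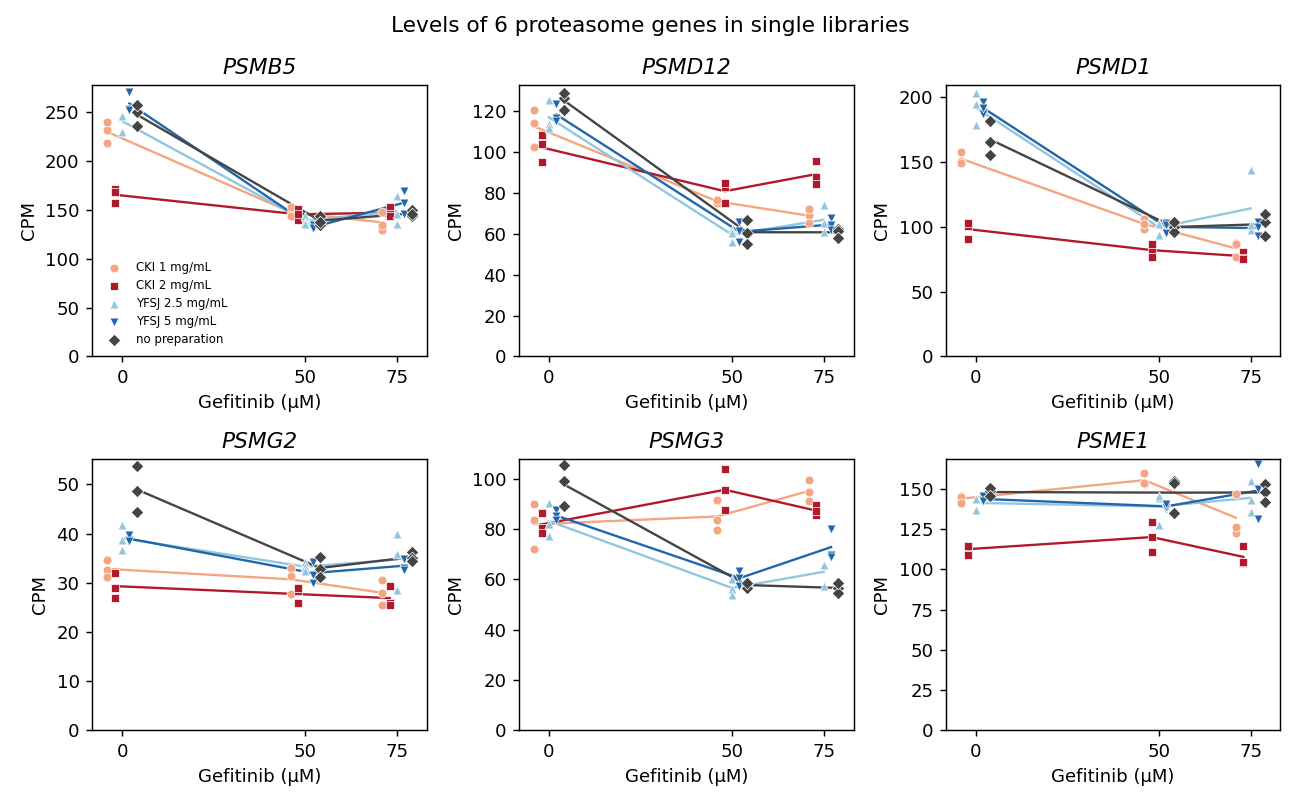
Levels (CPM) of 6 members in single libraries by gefitinib dose (µM, points spread sideways for clarity), with lines through the means of 3 libraries for each preparation dose. PSMB5 and PSMD12 drop with gefitinib, PSMD1 and PSMG2 are low with CKI 2 mg/mL at each gefitinib dose, PSMG3 stays high where CKI is added, and PSME1 is lowest with CKI 2 mg/mL at each gefitinib dose.

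CKI 1 mg/mL added to gefitinib moved few members. Beside gefitinib 75 µM 1 member rose and 3 fell, against 17.3% of all genes tested that rose and 17.3% that fell. Beside 50 µM 5 rose and 1 fell, against 15.5% and 16.2%. After PSMG3 the largest rise beside 50 µM was that of PSMD12 (0.32 ± 0.08, adjusted p = 0.00320), and the fall was that of PSMB6 (-0.21 ± 0.08, adjusted p = 0.0437). Beside 75 µM the falls were those of PSMG2 (-0.33 ± 0.10, adjusted p = 0.00723), PSMD1 (-0.29 ± 0.11, adjusted p = 0.0294) and PSME3 (-0.21 ± 0.08, adjusted p = 0.0412), which also fell beside gefitinib at 2 mg/mL. These counts depended on scaling and on single libraries. With library-size scaling, which moved the median of all genes by 0.128 beside 50 µM and 0.102 beside 75 µM, 19 and 14 members rose and 0 fell in each, against 25.5% and 24% of all genes that rose. Beside 75 µM 0 fell without library 1 of the combination, 1 fell without library 1 or 2 of gefitinib 75 µM, and 2 rose without library 2 of the combination. With libraries 2 and 3 of the combination, which held ALB, left out, 1 fell. Beside 50 µM 2 rose without library 2 of gefitinib 50 µM and 3 without library 1 or 2 of the combination. The fall of PSMB6 was lost without any library of gefitinib 50 µM or library 3 of the combination, with an adjusted p between 0.0511 and 0.277.

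YFSJ moved few genes of any kind, and few members with them. At 5 mg/mL 2 members rose and 1 fell, against 4.28% of all genes tested that rose and 2.2% that fell. These counts are near those shares, so they cannot be called particular to the members. PSMD2 had 944, 907 and 895 CPM with YFSJ 5 mg/mL, against 779, 635 and 742 CPM in untreated cells (0.35 ± 0.11, adjusted p = 0.0482). PSME3 had 264, 273 and 270 CPM with YFSJ 5 mg/mL, against 237, 198 and 229 CPM in untreated cells (0.28 ± 0.08, adjusted p = 0.0240). PSMG2 had 38.6, 39.7 and 38.5 CPM with YFSJ 5 mg/mL, against 48.7, 53.8 and 44.4 CPM in untreated cells (-0.33 ± 0.10, adjusted p = 0.0324). The groups did not overlap in these 3 genes, yet PSMD2 lost its call without any 1 of the 6 libraries, with an adjusted p between 0.0550 and 0.267, and PSME3 and PSMG2 lost theirs without library 2 of untreated cells (0.206 and 0.208) or any 1 library of YFSJ 5 mg/mL. PSMG2 lost its call without library 1 of untreated cells too (0.0808).

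At 2.5 mg/mL 0 members were called with edgeR, though 1 with an unadjusted p under 0.05 was higher and 8 were lower. DESeq2 called 1 lower, and 2.01% of all genes tested rose and 0.918% fell. Added to gefitinib, YFSJ gave 1 call in 4 comparisons. With 2.5 mg/mL 0 members were called beside gefitinib 50 µM, where 0.0633% of all genes rose and 0.0253% fell, and 0 beside 75 µM, where 0.994% rose and 0.836% fell. With 5 mg/mL 0 were called beside 50 µM, where 0.532% of all genes rose and 0.405% fell. In these 3 comparisons DESeq2 called 0 members. With 2.5 mg/mL beside 75 µM, 1 member was lower at an unadjusted p under 0.05 in edgeR, as were 1569 of the 15789 genes tested. PSMG3 had 80.0, 69.9 and 68.8 CPM with YFSJ 5 mg/mL and gefitinib 75 µM, against 56.7, 54.6 and 58.6 CPM with gefitinib 75 µM (0.36 ± 0.10, adjusted p = 0.0331), in a comparison where 1.79% of all genes rose and 1.67% fell. Without library 1, 2 or 3 of gefitinib 75 µM or library 1 or 2 of the combination that call was lost, with an adjusted p between 0.0634 and 0.230. The interaction of YFSJ with gefitinib called 0 members with edgeR, against 0.646% of all genes called higher and 1.05% lower. At an unadjusted p under 0.05 in edgeR, 4 members were higher, as were 1298 of the 15789 genes tested. DESeq2 called 1 member higher. Between YFSJ 5 and 2.5 mg/mL 0 members were called with edgeR or DESeq2 and 0 had an unadjusted p under 0.05, against 0.019% of all genes higher and 0.355% lower. In all these YFSJ comparisons edgeR counts of 0 or 1 are near the shares of all genes. They cannot be called particular to the members either. In library 2 of YFSJ 2.5 mg/mL with gefitinib 75 µM the median member stood at -0.57 relative to untreated cells, against -0.81 and -0.71 in the other two, and that library also had the highest share of the mitochondrial ribosomal RNA RNR2 in its group, at 2.18% of counts. The part of that RNA in the difference was not tested. RNR2 also differed between groups, at 0.464% to 0.582% in untreated cells at 24 h and 0.674% to 0.886% with gefitinib 75 µM. It was 0.919% to 1.16% with CKI 2 mg/mL and 1.39% to 1.56% with CKI 2 mg/mL and gefitinib 75 µM. Its part in the comparisons of those groups was not tested either.

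Untreated culture for 24 h moved members in both directions. At 24 h 9 members were higher and 11 lower than at 0 h, against 10.8% and 14.4% of all genes tested. PSME1 had 148, 150 and 145 CPM at 24 h, against 66.4, 81.0 and 128 CPM at 0 h (0.69 ± 0.12, adjusted p = 5.13e-05). PSMD2 had 779, 635 and 742 CPM at 24 h, against 1549, 1218 and 904 CPM at 0 h (-0.77 ± 0.11, adjusted p = 5.09e-06). PSMB3 was higher at 24 h by 0.53 ± 0.11 and PSME4 lower by -0.52 ± 0.14. The 0 h libraries differ from each other, with RNR2 at 1.22% and 1.69% of counts in libraries 1 and 2 and 0.457% in library 3, and library 3 lies nearest to 24 h in PSME1 and PSMD2. The part of RNA quality in these changes was not tested. In a fit of these 6 libraries alone 0 members were called in either direction, where 0.198% of all genes were higher and 0.46% lower. Against library 3 at 0 h alone, assumed to vary like the libraries of the other groups, also 0 were called, where 0.201% of all genes were higher and 0.684% lower. Counts of 0 among 43 members are near these shares. Without library 1 at 0 h 4 were higher and 4 lower, without library 2 at 0 h 6 were lower, and without library 2 at 24 h 6 were lower.

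Genes of the same system outside the symbol rule were read in lists chosen with earlier results of these data known. Of 12 other proteasome subunits, assembly and substrate-handling factors, 8 fell and 1 rose with gefitinib 75 µM, 4 fell and 3 rose with CKI 2 mg/mL, and 6 rose and 1 fell when CKI 2 mg/mL was added to gefitinib 75 µM. Of all genes tested, 27.1% fell and 27.6% rose with gefitinib 75 µM, 27.1% fell and 24.1% rose with CKI 2 mg/mL, and 28.8% rose and 29.4% fell with CKI 2 mg/mL added, so the counts with CKI 2 mg/mL alone are near those of all genes. UCHL5, a deubiquitinase of the cap, averaged 23.2 CPM with gefitinib 75 µM, against 56.9 CPM in untreated cells (-1.30 ± 0.11, adjusted p = 4.61e-14). ADRM1, the ubiquitin receptor that binds UCHL5, changed by -0.67 ± 0.12 with gefitinib 75 µM and by 0.77 ± 0.12 when CKI 2 mg/mL was added. POMP, the chaperone of beta-ring assembly, changed by -0.58 ± 0.08 with gefitinib and by 0.05 ± 0.08 when CKI was added. ZFAND2A, a stress-induced partner of the proteasome, rose in all 3 comparisons, by 0.40 ± 0.12 with gefitinib 75 µM, 0.92 ± 0.12 with CKI 2 mg/mL and 1.39 ± 0.12 with CKI 2 mg/mL added to gefitinib 75 µM.

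Of 10 genes of the NFE2L1 route, 3 rose and 2 fell with gefitinib 75 µM and 6 rose and 2 fell with CKI 2 mg/mL. The gefitinib counts are near the shares of all genes just given. NFE2L1 itself averaged 426 CPM with gefitinib 75 µM and 352 CPM with CKI 2 mg/mL, against 237 CPM in untreated cells (0.84 ± 0.13, adjusted p = 4.31e-07, and 0.57 ± 0.13, adjusted p = 0.000277), while the median member fell in both. VCP, the ATPase that extracts NFE2L1 from the endoplasmic reticulum, changed by -0.39 ± 0.07 with gefitinib 75 µM and by -0.59 ± 0.07 with CKI 2 mg/mL. DDI2, the protease that cleaves NFE2L1, was low throughout, at 4.94 CPM with CKI 2 mg/mL and gefitinib 75 µM, against 2.19 CPM with gefitinib 75 µM (1.17 ± 0.26, adjusted p = 0.000214). Only RNA was measured, and these levels say nothing of NFE2L1 protein or cleavage.

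Among ubiquitin genes, UBB, which encodes a polyubiquitin precursor, changed by -0.43 ± 0.09 with gefitinib 75 µM and by -0.21 ± 0.09 with CKI 2 mg/mL. Of 5 shuttle factors that carry ubiquitinated proteins, 3 fell with gefitinib 75 µM and 0 were called with CKI 2 mg/mL, numbers too small to set against those shares. Of the immunoproteasome subunits left out by the rule, PSMB10 averaged 27.5 CPM with CKI 2 mg/mL, against 53.2 CPM in untreated cells (-0.95 ± 0.11, adjusted p = 1.45e-09). With gefitinib 75 µM it was not called (-0.04 ± 0.11). PSMB8 was called in neither comparison, but its level was very low, at 0.329 CPM in untreated cells at 24 h. PSMB9 had at most 1 count in any library and was not tested.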

How the data were processed

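RNA of 48 H1975 libraries in 16 groups of 3 was sequenced as unstranded paired-end reads, with the PureLink RNA Mini kit and the NEBNext Ultra RNA kit, per the labels' protocols. The authors deposited raw read counts per gene symbol. Per the submitters' processing notes, reads were handled on build hg19 with edgeR, STAR 2.5.3a and Trim Galore 0.4.2. The counting tool, annotation version and strand setting are not given in the sources used here. All columns mapped to a sample, and no pair of libraries held identical values (chi-square per gene between replicates 3.68 to 67.6).

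The analysis used edgeR 4.0.16 under R 4.3.3. In filterByExpr the minimum count was 10 and the total at least 15. The 15789 genes kept hold 99.97% of counts. A robust quasi-likelihood fit with TMM factors and 1 mean per group had 32 residual degrees of freedom and a common biological coefficient of variation of 0.102. Every comparison was a two-sided contrast of this fit, adjusted over all genes tested. The SE is the size of the log2 change over the root of its F statistic. Scripts were tested on simulated data.

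The members and the lists of related genes were chosen with earlier results of these data known. Counts over the list of ubiquitin genes are not reported here. In comparisons of 1 agent with untreated cells and in the CKI interaction, the 4 largest rises and falls among called members are named, and elsewhere the 2 largest. The catalytic subunits, PSMD4, PSME1 to PSME4, PSMF1, PSMG1 to PSMG4 and the related genes could be named anywhere. Exon overlaps and lengths came from GENCODE v29 and promoters from RefSeq, matched by symbol. Of the 45 members, 11 overlap an exon on the opposite strand and 12 have a named pseudogene, so their counts are less certain. Alternatives were relative log expression factors, library-size scaling, DESeq2 1.42.0, no filter, a replicate block, a term for libraries with over 1000 ALB counts, fits of the libraries compared, only library 3 at 0 h, and each library left out in turn. Leaving out the libraries with over 1000 ALB counts was added after seeing the data.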

Additional observations from a re-analysis of the deposited data

Results flagged for a closer look

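A test of the difference itself picked out the CKI by gefitinib interaction, in which the effect of CKI beside gefitinib was set against its effect alone. It called 33 of 43 members, all positive, against 20% of all genes tested called positive and 19.5% called negative. PSMG3 (0.92), PSMB3 (0.62), PSMD12 (0.59) and PSME2 (0.58) had the largest log2 values. With a term for the libraries with over 1000 ALB counts the members' median interaction was 0.32, against 0.36 without it.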

How the results depend on the processing

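Library-size scaling moved the median of all genes by 0.105 for gefitinib 50 µM, 0.198 for CKI 2 mg/mL, 0.115 between the CKI doses, 0.128 for CKI 1 mg/mL beside gefitinib 50 µM, and 0.102 and 0.104 for CKI 1 mg/mL beside 75 µM and CKI 2 mg/mL beside 50 µM. Under it 6 members were lower at 24 h than at 0 h, 1 rose and 3 fell with CKI 1 mg/mL, 18 fell with CKI 2 mg/mL, 2 were higher and 12 lower at 2 than at 1 mg/mL, 19 rose and 0 fell with CKI 1 mg/mL beside gefitinib 50 µM, 14 rose and 0 fell beside 75 µM, and 1 fell with CKI 2 mg/mL beside 50 µM. Without the filter on low counts 7 were lower at 24 h, 5 fell with CKI 1 mg/mL, 1 rose and 0 fell with YFSJ 5 mg/mL, and 3 rose and 0 fell with CKI 1 mg/mL beside 50 µM. In fits of only the libraries compared 0 members were called at 24 h, 6 fell with CKI 1 mg/mL, and 1 rose and 0 fell with YFSJ 5 mg/mL. Against library 3 at 0 h alone 0 were called, and PSMC3 reversed to 0.045. With relative log expression factors and with DESeq2, 3 rose with CKI 1 mg/mL beside gefitinib 75 µM, and DESeq2 called 1 lower with YFSJ 2.5 mg/mL and 1 higher in the YFSJ interaction. The term for libraries with over 1000 ALB counts left 7 that rose with CKI 2 mg/mL beside 75 µM and 1 that rose with YFSJ 5 mg/mL. Leaving those libraries out gave 8 that rose and 1 that fell with CKI 2 mg/mL beside 50 µM and 1 that fell with CKI 1 mg/mL beside 75 µM. Except where given earlier, these counts are not set beside the share of all genes in the same fit. They show how the counts depend on the processing and cannot by themselves be called particular to the members. The cause of these shifts was not tested.

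Replicate numbers did not pair the samples, since deviations of same-numbered libraries had a mean correlation of -0.0086, and 9 of 48 libraries correlated best with their own number. A replicate block left 858 of the members' results on the same side of the threshold and 2 lost their call, so that 1 member rose with YFSJ 5 mg/mL and 0 fell with CKI 1 mg/mL beside gefitinib 50 µM. Leaving out 1 library at a time gave 4 to 12 higher and 4 to 11 lower at 24 h than at 0 h, 40 to 41 that fell with either gefitinib dose, 4 to 10 with CKI 1 mg/mL and 31 to 35 with CKI 2 mg/mL. It gave 0 to 1 lower with YFSJ 2.5 mg/mL, 0 to 1 in each direction with YFSJ 5 mg/mL, and 14 to 22 lower and 0 to 1 higher at 2 than at 1 mg/mL CKI. Beside gefitinib, CKI 1 mg/mL gave 2 to 7 that rose and 0 to 1 that fell at 50 µM and 1 to 2 that rose and 0 to 3 that fell at 75 µM. CKI 2 mg/mL gave 14 to 19 that rose and 1 to 4 that fell at 50 µM and 12 to 20 that rose and 4 that fell at 75 µM. YFSJ 5 mg/mL beside 75 µM gave 0 to 1 that rose, and the CKI interaction 27 to 35. The shares of all genes in these fits are not given, so the ranges show only how far the member counts rest on single libraries. With 3 libraries per group, depth and spread limit what can be called among the smaller changes.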
